A study of Mus musculus with 8 samples.

Results

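Surface markers of chronic myeloid leukemia (CML) stem cells were read at the RNA level through 8 genes, Il1rap, Dpp4, Il2ra, Cd93, Cd33, Cd36, Cd9 and Cd44. The genes were taken by symbol from a list of surface proteins reported on CML leukemic stem cells (LSCs). All 8 were among the 15576 genes of the count table, and 7 of the 8 had enough counts to be tested. Il2ra was the exception.

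The libraries were bulk RNA-seq of cells sorted as stem cells, LSCs in the study, from the bone marrow of C57BL/6 mice, 4 from untreated CML mice (CML) and 4 from CML mice given imatinib (CML-TKI). Mice of both groups carried the BCR-ABL×SCL-tTA double transgene: SCL regulatory sequence drives a tetracycline-controlled activator in stem and progenitor cells, and BCR-ABL is switched on by taking tetracycline away, so the controls carry the oncogene too. Imatinib, a tyrosine kinase inhibitor (TKI), was given by gavage at 400 mg/kg on alternate days for 4 weeks according to the labels. A lower dose is named in the text of the study for RNA-seq of these cells. The labels describe every library as Lin-Sca1+cKit+Flt3-CD150-CD48+, while the study defines LSCs by the opposite CD150 and CD48 phenotype. The age of the animals, whether they were primary or transplanted animals, and whether each library came from its own animal are not given in the sources used here, so p-values measure only the spread between these libraries. The fourth CML library carries the number 5 in the table and is called CML 5.

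BCR-ABL is a fused kinase that is always active, and imatinib blocks it. Most leukemic cells die under the drug, but LSCs survive, and surface proteins that are denser on LSCs than on normal stem cells are used to sort them, to follow them under treatment and as targets of antibodies. IL1RAP and CD25 (the product of Il2ra) are chains of cytokine receptors, CD26 (Dpp4) is a protease at the cell surface, CD93, CD33 and CD44 bind glycans or matrix, CD36 takes up lipids, and CD9 organises other membrane proteins. Most of these markers were described on human cells. RNA levels are not surface protein levels, which were not analysed here.

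CML libraries held 4939639 to 8620097 counts in total and CML-TKI libraries 1041562 to 5104276, the lowest being CML-TKI 3. The ribosomal RNA gene Rn45s held 20.2% to 38.3% of the counts in CML and 9.23% to 22.5% in CML-TKI. A gene with 3 counts, taken here as the floor, stood at 0.348 to 0.607 CPM (a gene's share of all counts of its library) in CML and at 0.588 to 2.88 CPM in CML-TKI, for counting error only. The biological coefficient of variation between libraries was 28.1% in CML and 68.6% in CML-TKI. CML-TKI 1 stood apart from the other CML-TKI libraries, at -19.2 on the first principal component (52.5% of the variance) against 70.1 to 118.8, with the CML libraries between -74.4 and -69.3. CML 1, 2 and 3 were much alike, with a chi-square per degree of freedom of 3.56 to 4.79 between them, whereas it was 51.3 to 55.3 between CML 5 and each of them and 23.9 to 60.6 between CML-TKI libraries.

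The sorted phenotype was checked against its own genes. Kit, which encodes cKit, was present in every library but lower in CML-TKI (194 to 290 CPM against 764 CPM and above in CML, adjusted p = 8.70e-04, edgeR). Slamf1, which encodes CD150, was at 29.01 to 37.7 CPM in CML and 0.620 to 6.58 CPM in CML-TKI, and Cd48 was at 3.86 to 6.40 CPM and 39.9 to 178 CPM. Ly6a, which encodes Sca1, was at 33.2 to 38.5 CPM in CML and at 44.3, 9.61, 8.77 and 1.56 CPM in CML-TKI 1 to 4, and Flt3, whose protein the phenotype lacks, was at 15.7 to 17.2 CPM in CML and at 13.7, 7.75, 18.6 and 63.2 CPM in CML-TKI 1 to 4, and neither passed the threshold (adjusted p = 0.373 and 0.522, edgeR). Slamf1 fell and Cd48 rose (adjusted p = 0.00797 and 8.70e-04, edgeR). At the RNA level the CML libraries, with Slamf1 high and Cd48 low, thus went against the labelled phenotype, and the CML-TKI libraries, with the reverse, against that by which the study defines LSCs. Genes of other blood cells also moved with the groups. The summed level of 11 granulocyte genes was 153 to 255 CPM in CML and 1462, 8111, 7882 and 8530 CPM in CML-TKI 1 to 4, with 10 of the 11 past the threshold upward, and the summed level of 8 monocyte and macrophage genes was 234 to 316 CPM and 1437 to 7375 CPM, with 7 of the 8 past it upward. The summed level of 10 stem cell genes was 1143 to 1523 CPM in CML and 435, 47.4, 80.01 and 99.1 CPM in CML-TKI 1 to 4, with 3 of the 9 tested past the threshold downward. Mecom, Procr and Fgd5, genes of long-term stem cells, were at 0 in CML-TKI 2 and CML-TKI 4 but had counts in CML-TKI 1 and CML-TKI 3. None of them passed the threshold (adjusted p = 0.109, 0.269 and 0.104, edgeR). Meis1, of the same list, was at 19.8 CPM in CML-TKI 2 and 21.9 CPM in CML-TKI 4. In bulk samples fewer cells of a type and less RNA per cell cannot be told apart, and the part of these genes in the values of the surface markers was not tested.

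**Figure D1:**
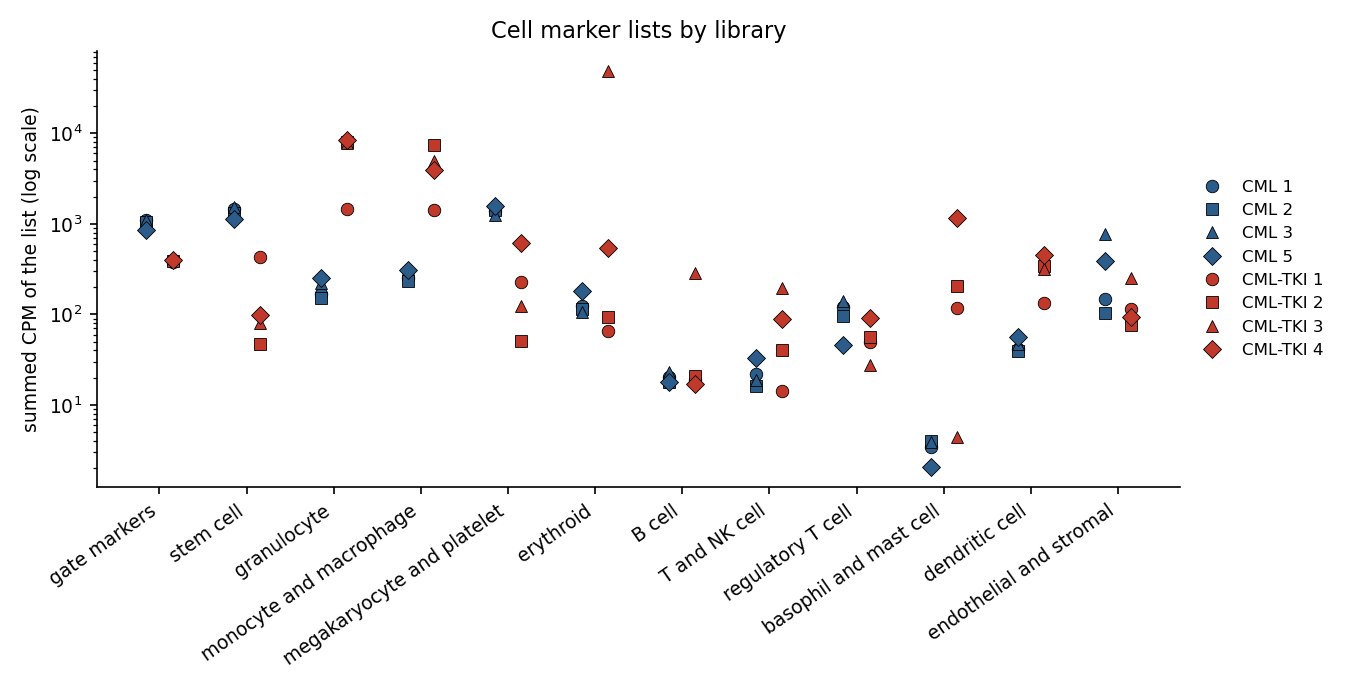
Summed CPM (log scale) of 12 lists of cell marker genes, one symbol per library, CML in blue and CML-TKI in red. Granulocyte sums are 153 to 255 CPM in the 4 CML libraries and 1462 to 8530 CPM in the 4 CML-TKI libraries, and stem cell sums run the other way, 1143 to 1523 CPM against 47.4 to 435 CPM.

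At an adjusted p under 0.05 in edgeR's quasi-likelihood test, 1 of the 7 markers tested changed between CML-TKI and CML, Cd33, which was higher in CML-TKI. Over all 11937 genes tested the same rule called 10.2%, with 6.29% higher and 3.93% lower. Cd44 lay just outside the threshold (adjusted p = 0.0509), with Cd33 just inside it (adjusted p = 0.0495). Among the markers, Cd44 was the only one of the 7 tested whose 4 CML-TKI libraries lay beyond every CML library, in the upward direction, a pattern shown by 10.3% of all genes tested, and none lay wholly below, as 13.1% of all genes did. Il2ra, which was not tested, had counts in every CML-TKI library and in no CML library. The remaining 5 markers, Il1rap, Dpp4, Cd93, Cd36 and Cd9, did not pass the test, and their groups overlapped.

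These counts changed with CML-TKI 1. Without it, 3 of the 7 markers passed the threshold, Cd33 and Cd44 upward and Cd9 downward, where 20.6% of all genes then did. Without both CML-TKI 1 and CML 5 the same 3 markers passed, where 20% of all genes did. Leaving out any other single library left 0 of the 7 past the threshold in edgeR, with 2 or 3 at an unadjusted p under 0.05. Of all genes, 4.13%, 4.51%, 4.69% and 6.6% passed without CML 1, 2, 3 and 5, and 7.38%, 9.79% and 8.36% without CML-TKI 2, 3 and 4. DESeq2 and limma-voom each called 2 of the 7 on all libraries, Cd33 and Cd44, where they called 18.1% and 21.5% of all genes. The median absolute log2 distance of a library from the CML mean, taken over the 7 markers, was 0.19 to 0.32 for the CML libraries and 0.49, 1.84, 1.39 and 0.69 for CML-TKI 1 to 4.

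**Figure D2:**
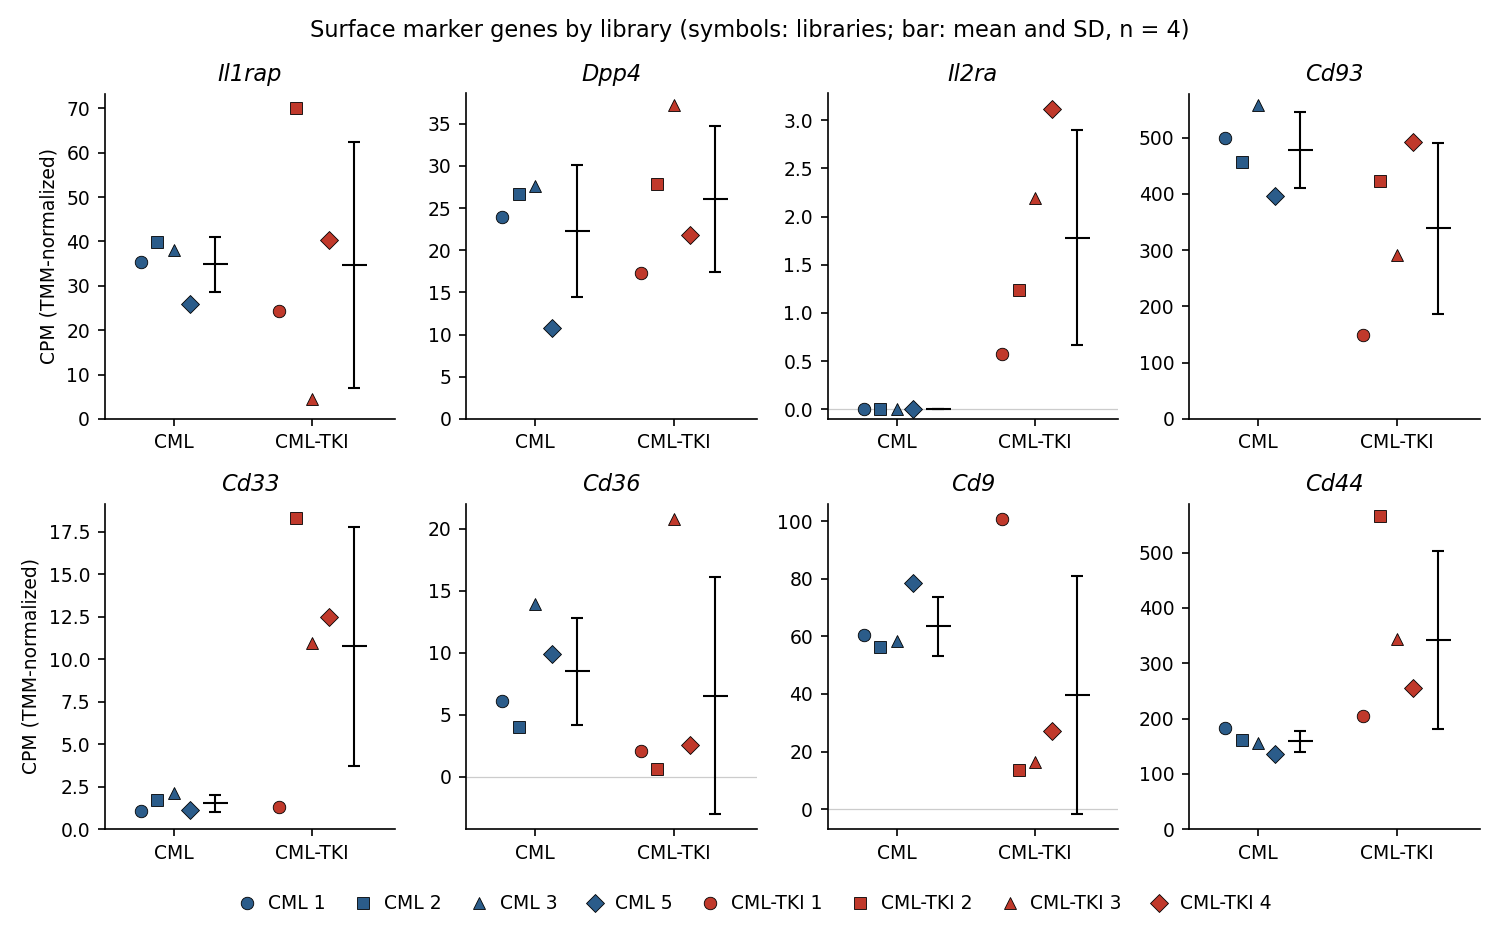
TMM-normalized CPM of each of the 8 surface marker genes, one symbol per library, with the mean and SD of each group (n = 4) as a bar beside it; each panel has its own linear axis. Cd44 is the only tested gene with every CML-TKI library above every CML library, Il2ra is at 0 in all 4 CML libraries, and the SD is larger in CML-TKI than in CML for each gene, by least for Dpp4 (8.63 and 7.83 CPM).

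**Figure D3:**
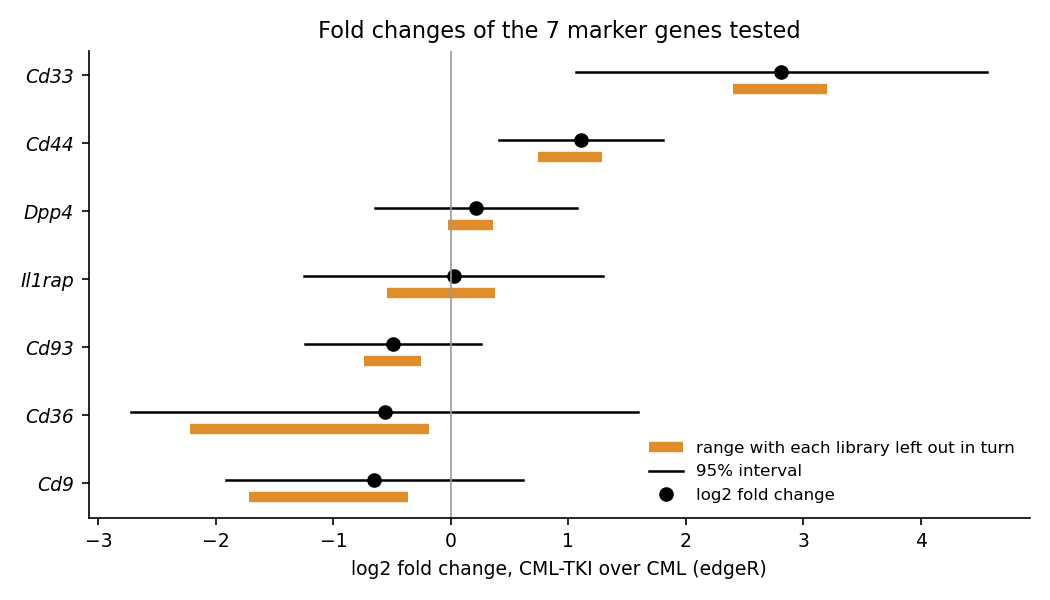
Log2 fold change of CML-TKI over CML from edgeR for the 7 genes tested (dots), with its 95% interval (lines) and the range over fits that each left out 1 of the 8 libraries (thick bars). The intervals of Cd33 (1.06 to 4.56) and Cd44 (0.41 to 1.80) lie above 0, those of the other 5 genes include 0, and the ranges of Dpp4 and Il1rap include 0 too.

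Levels were ordered within each group by CPM per kilobase of exon, the scale on which genes of different length can be compared. In CML, Cd93 was highest at 71.6 ± 10.2 CPM per kilobase (SD, n = 4), followed by Cd9 at 51.6 ± 8.31 and Cd44 at 28.1 ± 3.43. Dpp4 (4.22 ± 1.49 CPM per kilobase), Il1rap (4.05 ± 0.72) and Cd36 (2.40 ± 1.23) formed a middle group, and Cd33 was at 0.25 ± 0.084 CPM per kilobase. The ranges of Cd93 and Cd9, of Dpp4 and Il1rap, and of Il1rap and Cd36 overlapped in CML, whereas the other neighbours in this order did not. In CML-TKI the order began with Cd44 (60.5 ± 28.3 CPM per kilobase), Cd93 (50.7 ± 22.7) and Cd9 (32.2 ± 33.6), and Cd33 reached 1.77 ± 1.16, close to Cd36 at 1.85 ± 2.70. There, all neighbours overlapped apart from Cd9 and Dpp4, and from Dpp4 downward no marker passed 8.14 CPM per kilobase in any library.

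Il1rap (chromosome 16 of GRCm38, 26581509 to 26730128) encodes the accessory chain that IL-1, IL-33 and IL-36 receptors need to signal. It had 35.4, 39.95, 38.1 and 25.98 CPM in CML 1, 2, 3 and 5, and 24.3, 70.04, 4.38 and 40.3 CPM in CML-TKI 1 to 4. The group means differed by less than their spread, 34.9 ± 6.2 CPM in CML and 34.8 ± 27.7 CPM in CML-TKI (SD, n = 4). CML-TKI 2 was above every CML library and CML-TKI 4 just above the highest of them, whereas CML-TKI 1 and 3 were below every one, so that the highest CML-TKI library stood 15.98-fold over the lowest, compared with 1.54-fold in CML. The low value of CML-TKI 3 rests on 4 counts. The log2 fold change was 0.025 (standard error 0.57, 95% interval -1.25 to 1.30, adjusted p = 0.984, edgeR), and over fits leaving out 1 library it ran from -0.54 to 0.37. An exon of Gm20319 on the opposite strand shares 353 bases with Il1rap, and counts were not stated to use strand or to separate the membrane and soluble forms.

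Of the IL-1 receptor family and its signalling genes, 19 were tested, of which 1 rose and 1 fell, with a median log2 fold change of 0.25 (all genes, -0.00026). Il1rl1, the IL-33 receptor that pairs with IL1RAP, rose from 1.92 to 8.11 CPM in CML to 14.6 to 105.4 CPM in CML-TKI (log2 fold change 3.72, standard error 0.64, adjusted p = 0.00683, edgeR). Sigirr, an inhibitory member of the family, fell from 52.3 ± 20.01 CPM to 14.1 ± 3.20 CPM (SD, n = 4; log2 fold change -1.89, adjusted p = 0.00778, edgeR). Il1r1, the IL-1 receptor chain that binds the ligand and pairs with IL1RAP, was at 13.9 to 19.9 CPM in CML and 0 to 9.12 CPM in CML-TKI, without overlap, but did not pass the threshold (log2 fold change -2.10, standard error 0.71, adjusted p = 0.0906, edgeR). Its adjusted p was 0.00906 in the fit without CML-TKI 1, the lowest of the fits leaving out 1 library.

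Il2ra (chromosome 2, 11642792 to 11693194) encodes CD25, the chain that gives the IL-2 receptor its high affinity. It had 0 counts in all 4 CML libraries and 3, 4, 2 and 12 counts in CML-TKI 1 to 4, which are 0.57, 1.24, 2.19 and 3.12 CPM. Only CML-TKI 2 and CML-TKI 4 were above the floor of 3 counts. Pooled over the group, 21 counts among 12765993 (1.65 CPM) stood against 0 among 25872625, which allows up to 0.116 CPM with the floor taken over the group. The pooled CML-TKI level was 14.2-fold over this limit, a ratio that leaves out the counting error of the 21 counts. CML-TKI 4 held 12 of the 21 counts, and without it the ratio was 8.47-fold, from 9 counts (0.983 CPM). These pooled values use total counts that were not scaled. Because most libraries were at or under the floor, the difference is given as values. A fit with no filter on low counts called Il2ra (adjusted p = 0.0455, edgeR), which is not relied on here.

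Other cells that carry CD25 were read beside it. T and NK cell genes summed to 16.02 to 32.7 CPM in CML and to 14.2, 40.9, 196 and 88.7 CPM in CML-TKI 1 to 4, with Cd3e, Cd3g and Cd8a at 0 in every CML library. In CML-TKI 1 to 4, Cd3e had 7, 1, 2 and 25 counts, Cd3g 0, 0, 0 and 12, and Cd8a 2, 1, 42 and 10. Nkg7 held 96.4 CPM of the sum in CML-TKI 3. Regulatory T cell genes summed to 46.1 to 142 CPM in CML and to 49.6, 56.4, 27.4 and 91.3 CPM in CML-TKI 1 to 4, most of it from Ikzf2 in every library. Of these genes, Foxp3 was at 2.32 to 4.44 CPM in CML and at 3.04, 4.96, 1.10 and 13.3 CPM in CML-TKI 1 to 4, and Ikzf2 was at 42.6 to 137 CPM in CML and 26.3 to 73.6 CPM in CML-TKI, and neither passed the threshold (adjusted p = 0.494 and 0.139, edgeR). Ctla4, the remaining gene of that list, was not tested and had 0, 0, 0 and 2 counts in CML 1, 2, 3 and 5 and 0, 23, 0 and 17 counts in CML-TKI 1 to 4, so it was above the floor in the same 2 libraries as Il2ra. Basophil and mast cell genes summed to 2.06 to 4.05 CPM in CML and to 118, 204, 4.38 and 1164 CPM in CML-TKI 1 to 4. CML-TKI 4, with the most Il2ra counts, also had the highest Foxp3, Cd3e and Cd3g levels and the highest basophil and mast cell sum. The T and NK cell sum and Cd8a were highest in CML-TKI 3, and the regulatory T cell sum, mostly Ikzf2, in CML 3. The part of such cells in the Il2ra counts was not tested.

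The 250 bases upstream of the Il2ra start are printed because this is the one marker read in a single group (RefSeq window, GRCm38.p6, plus strand, chr2:11642542-11642791).
Il2ra: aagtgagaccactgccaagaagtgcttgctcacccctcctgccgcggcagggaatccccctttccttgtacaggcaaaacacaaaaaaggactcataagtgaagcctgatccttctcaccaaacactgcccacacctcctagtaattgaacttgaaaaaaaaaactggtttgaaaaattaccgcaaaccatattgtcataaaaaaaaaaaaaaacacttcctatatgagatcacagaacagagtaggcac
Its GC content was 42.4%, below the lower quartile of all such windows (45.2%), and none of the 6 motifs searched was found in the 300 bases that run to 50 bases past the start.

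The other chains and the kinases of the IL-2 receptor were read as a list. Of 10 genes tested, 0 rose (1 at an unadjusted p under 0.05) and 3 fell, Cish, Stat5a and Jak3, and the median log2 fold change was -0.78. Cish, an inhibitor of cytokine signalling that STAT5 switches on, fell from 36.3 to 53.1 CPM in CML to 3.10 to 18.6 CPM in CML-TKI (log2 fold change -2.46, standard error 0.58, adjusted p = 0.0262, edgeR). Stat5a, the transcription factor itself, fell from 242.2 ± 43.5 CPM to 85.5 ± 33.3 CPM (SD, n = 4; log2 fold change -1.49, adjusted p = 0.0108, edgeR), and Jak3, the kinase bound to the common gamma chain, fell from 185.6 ± 44.3 CPM to 87.9 ± 28.2 CPM (SD, n = 4; log2 fold change -1.09, adjusted p = 0.0328, edgeR). The call of Cish was kept among the fits that left out 1 library only without CML-TKI 1, and that of Jak3 only without CML-TKI 1 or CML-TKI 3, with adjusted p up to 0.0725 and 0.0888 in the others. Il2rg, the common gamma chain, did not pass (log2 fold change 0.14, standard error 0.41, adjusted p = 0.865, edgeR). Il2rb, the beta chain, was not tested, with 0 to 0.41 CPM in CML and 7.03, 0, 71.2 and 25.8 CPM in CML-TKI 1 to 4.

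Dpp4 (chromosome 2, 62330073 to 62412315) encodes CD26, a serine protease that trims chemokines such as CXCL12 and several hematopoietic growth factors. It had 24.0, 26.6, 27.6 and 10.7 CPM in CML 1, 2, 3 and 5, and 17.3, 27.9, 37.3 and 21.9 CPM in CML-TKI 1 to 4. The groups overlapped, and the lowest library of all was CML 5, a CML library. Means were 22.2 ± 7.83 CPM in CML and 26.1 ± 8.63 CPM in CML-TKI (SD, n = 4), a log2 difference of 0.21 (standard error 0.39, 95% interval -0.65 to 1.07, adjusted p = 0.779, edgeR). Without CML 5 the log2 fold change was -0.027.

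Among relatives, substrates and partners of DPP4, 5 of 11 genes tested rose and 0 fell (0 also at an unadjusted p under 0.05), with a median log2 fold change of 0.89. Those called were Csf2rb, Csf2ra, Csf3r, Cxcr4 and Dpp9, of which Csf2rb, Csf2ra and Csf3r are receptor chains for the growth factors GM-CSF and G-CSF, and Cxcr4 is the receptor of CXCL12. Csf2rb rose from 22.8 to 45.6 CPM in CML to 163.9 to 859.7 CPM in CML-TKI (log2 fold change 3.68, standard error 0.56, adjusted p = 0.00369, edgeR). Csf2ra rose by 2.24 (adjusted p = 0.0105) and Csf3r by 1.43 on the log2 scale (adjusted p = 0.0304, edgeR), the latter keeping its call among fits without 1 library only without CML-TKI 1 (adjusted p up to 0.102 in the others). Csf2rb, Csf2ra and Csf3r are also expressed by granulocytes and monocytes, of which marker genes rose in CML-TKI. The part of such cells in these receptor genes was not tested.

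Cd93 (chromosome 2, 148436651 to 148443535) encodes a C-type lectin-like receptor of stem cells, endothelium and myeloid cells. It was the most abundant marker per length in CML, with 500.1, 456.9, 557.9 and 396.8 CPM in CML 1, 2, 3 and 5, and 148.9, 423.3, 290.4 and 492.2 CPM in CML-TKI 1 to 4. CML-TKI 1 and CML-TKI 3 lay below every CML library, and CML-TKI 2 and 4 lay within the CML range. Means were 477.9 ± 68.1 CPM and 338.7 ± 151.7 CPM (SD, n = 4), a log2 difference of -0.50 (standard error 0.34, 95% interval -1.24 to 0.25, adjusted p = 0.392, edgeR). The sign was negative in all fits run, with -0.25 without CML-TKI 1 as the smallest change. CML-TKI 1, the CML-TKI library with the smallest median distance from CML over the markers, was the one in which Cd93 lay farthest from CML. Endothelial and stromal genes summed to 103 to 771 CPM in CML and 75.6 to 252 CPM in CML-TKI, and the part of such cells in Cd93 was not tested.

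In the list of CD93 relatives and ligands, 1 of 8 genes tested rose and 0 fell (2 at an unadjusted p under 0.05), with a median log2 fold change of -0.34. The one called was Calr, which encodes the chaperone calreticulin, at 266 to 293 CPM in CML and 423 to 955 CPM in CML-TKI (log2 fold change 1.30, standard error 0.26, adjusted p = 0.0131, edgeR). The call was lost without CML 1, CML 2 or CML 3 (adjusted p up to 0.0558).

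Cd33 (chromosome 7, 43527399 to 43537424) encodes a sialic acid-binding lectin (Siglec) of myeloid cells and was the marker with the largest change among those tested. It had 1.09, 1.74, 2.13 and 1.10 CPM in CML 1, 2, 3 and 5, and 1.33, 18.3, 10.96 and 12.5 CPM in CML-TKI 1 to 4. CML-TKI 1 lay inside the CML range, and the other CML-TKI libraries were above every CML library. In counts these were 8, 9, 11 and 8 in CML and 7, 59, 10 and 48 in CML-TKI, so the CML level of Cd33 rests on few counts. Means were 1.51 ± 0.51 CPM and 10.8 ± 7.04 CPM (SD, n = 4), which is 2.81 on the log2 scale (standard error 0.78, 95% interval 1.06 to 4.56, fold change 7.03, adjusted p = 0.0495, edgeR).

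Cd33 was higher in CML-TKI in every alternative that tested it, but its call was not kept in most. The adjusted p was 0.00336 without CML-TKI 1 and between 0.0679 and 0.156 when any other library was left out, with log2 fold changes between 2.40 and 3.20 over all these fits. With RLE size factors it was 0.0502. DESeq2 and limma-voom gave 0.00421 and 0.0184. Cd33 rose with the granulocyte and monocyte sums, which were also lowest in CML-TKI 1 among the CML-TKI libraries, and the part of such cells in it was not tested.

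The sequence upstream of Cd33 is printed as that of the marker called, 193 bases that lie on the minus strand at chr7:43533172-43533364 (RefSeq window, GRCm38.p6), read 5′ to 3′ along the gene. The window lies inside the annotated span of Cd33, which has a farther start, and the 57 bases of it that fall in an exon of the gene are left off. Capitals mark the single match to TGTGGT, the core of RUNX motifs, which 16.8% of all promoter windows of 300 bases hold on either strand.
Cd33: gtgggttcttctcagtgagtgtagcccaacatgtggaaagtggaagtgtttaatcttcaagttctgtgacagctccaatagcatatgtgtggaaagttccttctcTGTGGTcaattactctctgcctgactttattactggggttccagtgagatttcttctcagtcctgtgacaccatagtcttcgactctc

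Other Siglecs and their signalling partners were read as a list. Of 8 genes tested, 4 rose and 0 fell (0 also at an unadjusted p under 0.05), with a median log2 fold change of 2.21. These were Siglece, Siglecf, Siglecg and Tyrobp, the last of which encodes DAP12, an adaptor of myeloid receptors. Tyrobp rose from 0.77 to 2.06 CPM in CML to 17.7, 66.9, 30.7 and 53.1 CPM in CML-TKI 1 to 4 (log2 fold change 4.92, standard error 0.54, adjusted p = 8.70e-04, edgeR). Siglece, Siglecf and Siglecg were at 0 to 1.93 CPM in every CML library and at 4.18 to 39.5 CPM in every CML-TKI library, so that unlike Cd33 their groups did not overlap. Ptpn6, which encodes the phosphatase SHP-1 recruited by inhibitory Siglecs, was at 73.5 to 97.5 CPM in CML and 66.5, 194, 190 and 138 CPM in CML-TKI 1 to 4, and did not pass (log2 fold change 0.83, adjusted p = 0.132, edgeR).

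Cd44 (chromosome 2, 102811141 to 102901669) encodes the receptor for hyaluronan that anchors stem cells and leukemic cells in the marrow niche. It had 182.8, 160.8, 155.6 and 135.6 CPM in CML 1, 2, 3 and 5, and 204.7, 566.8, 343.0 and 254.4 CPM in CML-TKI 1 to 4. Every CML-TKI library was above every CML library, with CML-TKI 1 nearest to them. Means were 158.7 ± 19.4 CPM and 342.3 ± 160.3 CPM (SD, n = 4), a log2 difference of 1.11 (standard error 0.31, 95% interval 0.41 to 1.80, fold change 2.16, adjusted p = 0.0509, edgeR). The adjusted p was 0.0115 without CML-TKI 1 and between 0.0568 and 0.137 without any other library, and DESeq2 and limma-voom gave 0.00786 and 0.00863. Among the CML-TKI libraries, Cd44 had the same order as the monocyte and macrophage sum (1437, 7375, 4986 and 3929 CPM in CML-TKI 1 to 4) but not as the granulocyte sum, which was highest in CML-TKI 4. Among the CML libraries, Cd44 was highest in CML 1 and the monocyte and macrophage sum in CML 3. The part of such cells in Cd44 was not tested. The counts do not separate the splice forms of Cd44.

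The 250 bases upstream of Cd44, shown for the gene next to the threshold, lie on the minus strand at chr2:102901666-102901915 (RefSeq window, GRCm38.p6, 5′ to 3′ along the gene). Capitals mark the single match to AGATAA, letters read by GATA factors, which 11.2% of all windows hold.
Cd44: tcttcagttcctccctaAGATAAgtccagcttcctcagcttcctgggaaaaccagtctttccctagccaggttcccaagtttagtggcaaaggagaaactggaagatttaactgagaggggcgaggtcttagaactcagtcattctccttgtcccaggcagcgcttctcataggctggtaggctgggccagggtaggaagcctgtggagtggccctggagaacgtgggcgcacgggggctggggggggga

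Windows were found for 7 of the 8 markers. Both strands were searched for 6 motifs. AGATAA was found in the windows of Dpp4 and Cd44 and TGTGGT in that of Cd33. The E-box CANNTG, held by 72.3% of all windows, was found in those of Dpp4, Cd33, Cd36 and Cd9. Neither the STAT motif TTCNNNGAA (8.30% of all windows), the PU.1 motif GAGGAAGT (3.20%) nor the C/EBP motif TTGCNNCAA (2.08%) was found in any of the 7, which says only that these letters are not in these windows. The GC content of the 250 upstream bases was 74.4% for Il1rap, 61.6% for Cd9 and 56.4% for Cd44, and 42.4% to 46.8% for Cd33, Dpp4, Cd36 and Il2ra, with a median of 52.4% over all windows.

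Hyaluronan receptors, hyaluronan enzymes and proteins that link CD44 to its surroundings were read as a list. Of 15 genes tested, 2 rose (7 at an unadjusted p under 0.05) and 0 fell (0 at that level), with a median log2 fold change of 0.86. Selplg, which encodes the selectin ligand PSGL-1, rose by 1.44 on the log2 scale (standard error 0.34, adjusted p = 0.0270, edgeR), with CML-TKI 1 just inside the CML range and the call kept among fits without 1 library only without CML-TKI 1 (adjusted p up to 0.0923 in the others). Has2, a hyaluronan synthase, was at 0 in every library but CML-TKI 1, which had 922 counts (175 CPM), and it was not tested.

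Cd36 (chromosome 5, 17781690 to 17888959) encodes a scavenger receptor that takes up long-chain fatty acids and oxidised lipoprotein. It had 6.13, 4.05, 13.9 and 9.90 CPM in CML 1, 2, 3 and 5, and 2.09, 0.62, 20.8 and 2.6 CPM in CML-TKI 1 to 4. CML-TKI 1, 2 and 4 were below every CML library and CML-TKI 3 was above every one. In counts, CML-TKI 1 to 4 had 11, 2, 19 and 10, so CML-TKI 2 was under the floor of 3 counts. Means were 8.498 ± 4.35 CPM and 6.53 ± 9.56 CPM (SD, n = 4), a log2 difference of -0.56 (standard error 0.97, 95% interval -2.72 to 1.59, adjusted p = 0.765, edgeR). Without CML-TKI 3 the log2 fold change was -2.22 and still did not pass (adjusted p = 0.0838). CML-TKI 3 was also the library with far the most erythroid RNA, with erythroid genes summing to 49349 CPM there and to 65.0 to 544 CPM in the other CML-TKI libraries (106 to 180 CPM in CML). Endothelial and stromal genes summed to 148, 103, 771 and 389 CPM in CML 1, 2, 3 and 5 and to 114, 75.6, 252 and 92.9 CPM in CML-TKI 1 to 4. Cd36 and this sum had the same order among the CML libraries and the same highest and lowest CML-TKI library. The shared CML order and the shared lowest CML-TKI library depended on the stromal gene Col1a1. It was at 396 CPM in CML 3 and 49.0 CPM in CML-TKI 1. The monocyte and macrophage sum was highest in CML-TKI 2, where Cd36 was lowest. Cd36 is known on erythroid precursors, endothelium and macrophages, and the part of such cells in its level was not tested.

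Of the scavenger receptors, fatty acid-binding proteins and kinases in the list for Cd36, 3 of 14 genes tested rose, 1 fell and the median log2 fold change was 0.40. The genes that rose were Olr1 and Cd68, scavenger receptors of endothelium and macrophages, and Lyn, a SRC family kinase that can act next to CD36. Lyn was at 74.4 to 93.7 CPM in CML and 96.1 to 309 CPM in CML-TKI (log2 fold change 1.26, standard error 0.34, adjusted p = 0.0435, edgeR), a call kept among fits without 1 library only without CML-TKI 1 (adjusted p up to 0.117 in the others). Scarf1, a scavenger receptor of endothelium, fell from 124.3 ± 21.3 CPM to 13.4 ± 11.4 CPM (SD, n = 4; log2 fold change -3.18, adjusted p = 0.00608, edgeR). Fabp4, a fatty acid-binding protein, was at 0 in every CML-TKI library and had 4, 4, 11 and 50 counts in CML 1, 2, 3 and 5 (0.545 to 6.87 CPM), and it was not tested.

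Cd9 (chromosome 6, 125460266 to 125494760) encodes a tetraspanin, one of a family of membrane proteins that gather integrins and other receptors into patches, and it is abundant on platelets and megakaryocytes. It had 60.3, 56.4, 58.4 and 78.5 CPM in CML 1, 2, 3 and 5, and 100.9, 13.6, 16.4 and 27.1 CPM in CML-TKI 1 to 4. CML-TKI 1 was above every CML library and the other CML-TKI libraries were below every one. Means were 63.4 ± 10.2 CPM and 39.5 ± 41.3 CPM (SD, n = 4), a log2 difference of -0.65 (standard error 0.57, 95% interval -1.92 to 0.61, adjusted p = 0.516, edgeR). Without CML-TKI 1 it was -1.72 (adjusted p = 0.00562), and without CML-TKI 1 and CML 5 it was -1.60 (adjusted p = 0.0137, edgeR). Megakaryocyte and platelet genes summed to 1262 to 1568 CPM in CML and to 227, 50.5, 124 and 618 CPM in CML-TKI 1 to 4. Among CML-TKI 2, 3 and 4, Cd9 and this sum were both lowest in CML-TKI 2 and highest in CML-TKI 4, whereas CML-TKI 1 had the most Cd9 and a lower sum than CML-TKI 4. The part of such cells in Cd9 was not tested. An exon of Gm26728 on the opposite strand shares 30 bases with Cd9.

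Among 23 tetraspanins and CD9 partners tested, 2 rose and 4 fell, with a median log2 fold change of -0.39. Cd81, whose protein is a close relative and partner of CD9, fell from 192 to 288 CPM in CML to 109, 34.7, 75.6 and 79.9 CPM in CML-TKI 1 to 4 (log2 fold change -1.54, standard error 0.33, adjusted p = 0.0176, edgeR), so that CML-TKI 1 was below CML for Cd81 and above it for Cd9. Cd81 lost its call without CML 1 or CML 5 (adjusted p up to 0.0509). Tspan13 fell by 1.86 on the log2 scale (adjusted p = 0.0132, edgeR), and Tspan4 and Tspan32 were the others that fell. Cd53, a tetraspanin of leukocytes, rose from 4.25 to 9.35 CPM in CML to 70.8, 276, 264 and 191 CPM in CML-TKI 1 to 4 (log2 fold change 4.97, standard error 0.48, adjusted p = 6.80e-04, edgeR). Tspan2 rose by 2.33 on the log2 scale (adjusted p = 0.0214, edgeR), a call lost without CML 1, CML 2, CML 5 or CML-TKI 4 (adjusted p up to 0.0701).

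**Figure D4:**
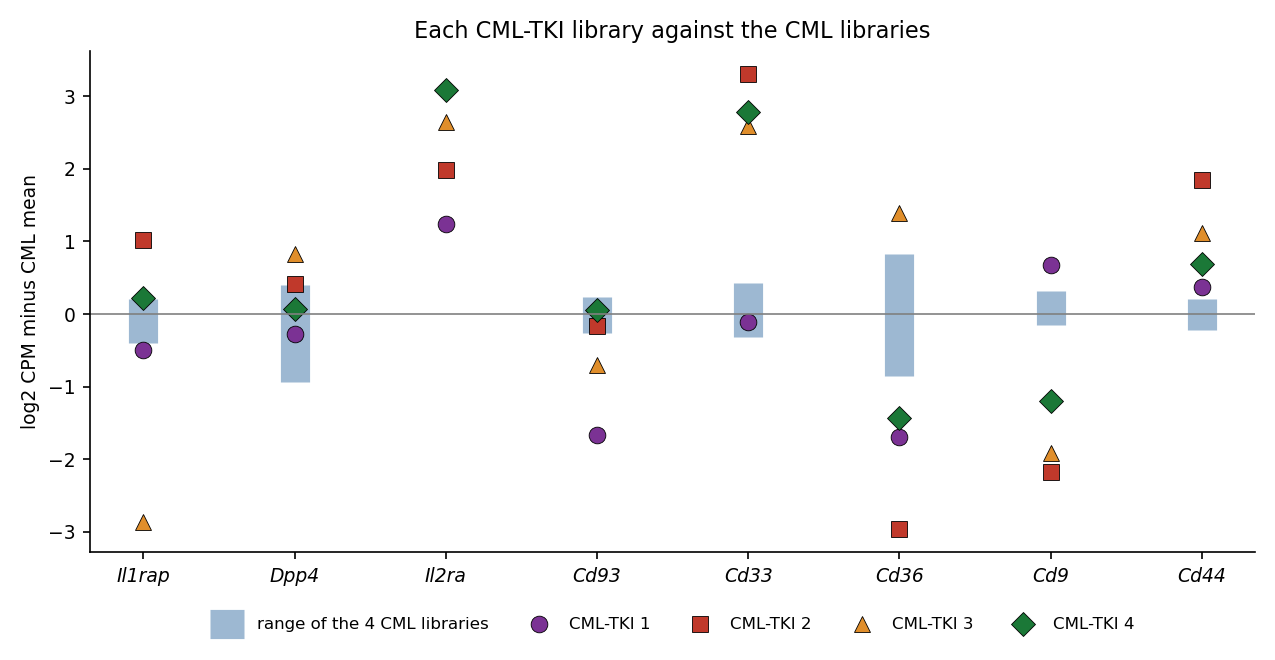
Log2 CPM (prior count 2) of each CML-TKI library minus the mean of the 4 CML libraries for the 8 marker genes, one symbol per library, with the range of the CML libraries as a pale bar (for Il2ra, at 0 in all of them, it has no height). CML-TKI 1 lies within or next to the CML range for Cd33, Dpp4, Il1rap and Cd44, above it for Cd9 and farthest below it for Cd93, while CML-TKI 2 has the highest Cd33, Cd44 and Il1rap and the lowest Cd36 and Cd9.

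The likeness of profiles over the 8 libraries was measured as the root mean square difference of log2 CPM after each gene's mean was taken away, which describes these libraries only, and libraries of 1 group share their treatment. The profile includes the difference between groups, so a gene near to a marker has a like fold change by the way it was chosen. The closest pair of markers was Dpp4 and Cd44, at 0.57, followed by Dpp4 and Cd93 at 0.68. Cd33 had Cd44 as its nearest marker at 0.93, and Cd36 had no marker nearer than 1.38.

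Among 9314 genes of at least 3 on the mean log2 CPM scale, Cd44 was closest to Mfsd1, a lysosomal transporter (0.11), and to Snx2, a sorting nexin (0.13). Mfsd1 passed the threshold at 1.09 on the log2 scale (standard error 0.28, adjusted p = 0.0363, edgeR), close in size to that of Cd44, and Snx2 did not (1.14, adjusted p = 0.0657). The genes closest to Cd33 were Cd177, a neutrophil surface protein (0.37), and Ticam2, an adaptor of Toll-like receptor signalling (0.38), which both rose in CML-TKI (log2 fold changes 2.27 and 2.07, adjusted p = 0.0426 and 0.0201, edgeR). Like Cd33, Cd177 kept its call among fits without 1 library only without CML-TKI 1, Ticam2 lost it without any of the CML libraries or CML-TKI 2 (adjusted p up to 0.0707), and Mfsd1 lost it without any of the CML libraries, CML-TKI 2 or CML-TKI 3 (adjusted p up to 0.115).

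The closest genes of the other 5 markers tested did not pass the threshold. Il1rap was closest to Gm15455 (0.26) and Xk (0.27), which were lowest in CML-TKI 3 as it was, at 1.10 and 6.58 CPM, the former from 1 count and so under the floor. Bmp2k was among the genes closest to Dpp4 (0.15) and, like Dpp4, was lowest in CML 5. Cd93 was closest to Lcp2 (0.16) and Zbtb25 (0.20), both lowest in CML-TKI 1. Cd9 was closest to Armcx2 (0.17) and Ldhb (0.22). Cd36 was closest to S1pr1, a receptor for sphingosine 1-phosphate (0.44), and to Lpl, which encodes lipoprotein lipase (0.45), both highest in CML-TKI 3.

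Further surface proteins reported on leukemic stem cells were read as a list for comparison. Of 24 genes tested, 8 rose, 3 fell (Kit, Tek and Adgrg1) and the median log2 fold change was 0.58. The largest rises were those of Csf1r, Fcgr3 and Clec12a. Csf1r is also among the 8 monocyte and macrophage genes read above. These summed to 234 to 316 CPM in CML and 1437 to 7375 CPM in CML-TKI. The part of such cells in these rises was not tested. Csf1r, the M-CSF receptor, rose from 0.97 to 3.67 CPM in CML to 75.97 to 391 CPM in CML-TKI (log2 fold change 6.75, standard error 0.62, adjusted p = 5.49e-04, edgeR). Fcgr3, an Fc receptor, rose by 6.58 on the log2 scale (standard error 0.69, adjusted p = 8.70e-04), and Clec12a, the C-type lectin CLL-1, by 6.25 (standard error 0.56, adjusted p = 5.41e-04, edgeR). Fcgr2b, Prom1, Cd52, Ncam1 and Adgre5 also rose, by 5.23, 4.68, 3.84, 3.49 and 1.14 on the log2 scale. Csf1r, Fcgr3 and Clec12a kept their calls in all 23 alternative fits, and their groups did not overlap, whereas Cd33 kept its call in 6 of the 21 alternatives that tested it.

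**Figure D5:**
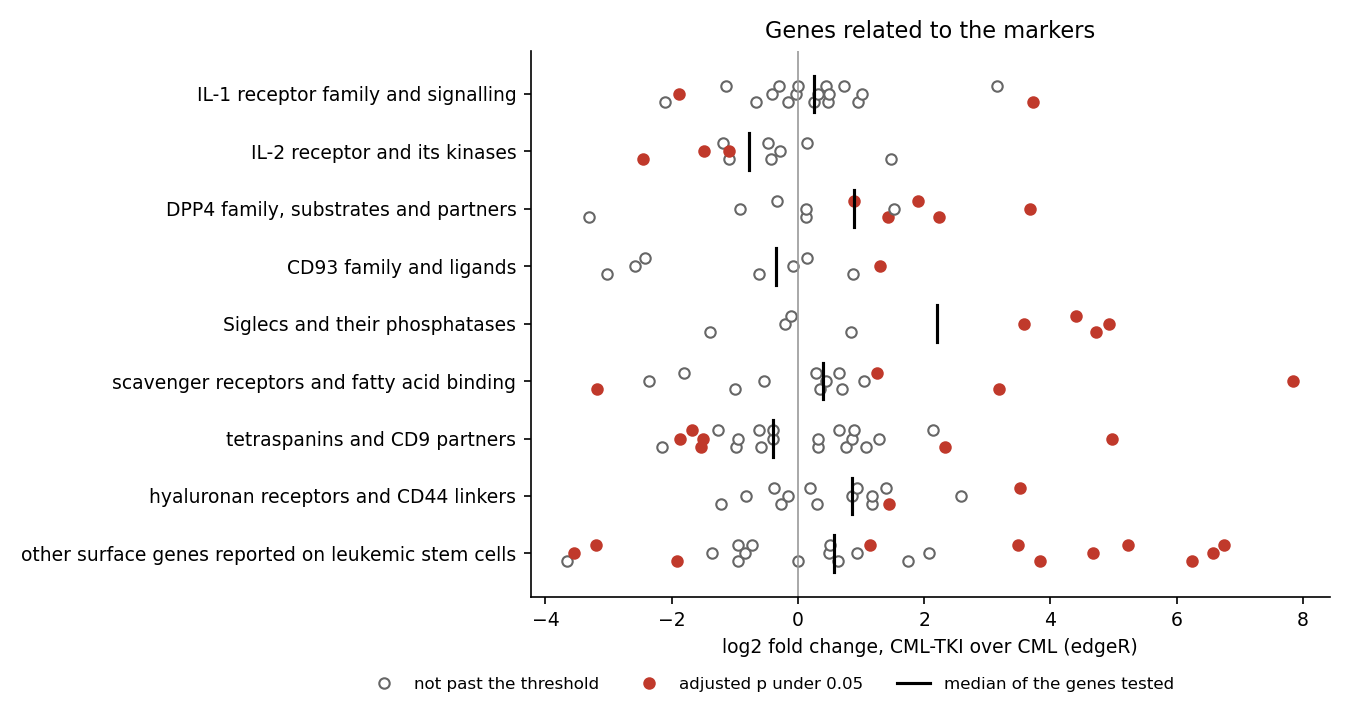
Log2 fold change of CML-TKI over CML (edgeR) for every tested gene of the 9 lists related to the markers; red dots passed an adjusted p under 0.05, open dots did not, and the black line is the median of the list. Of 132 genes tested 38 passed; the Siglec list has the highest median (2.21) and the IL-2 receptor list the lowest (-0.78).

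Over the 9 lists, 38 of 132 genes tested passed the threshold, 28.8%, where 10.2% of all genes did. The lists were written by hand with results of these libraries known, and no test compared them with other genes.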

How the data were processed

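Bulk RNA-seq of 8 libraries of sorted mouse bone marrow cells (4 CML, 4 CML-TKI) was analysed. The authors isolated total RNA (RNeasy Plus), built Nextera XT libraries, aligned read pairs to mm10 with STAR 2.6.1d and quantified RefSeq transcripts in Partek Flow (8.0 in the submitters' processing notes). The deposited values are estimated counts per gene, not normalized and not all whole, with 1 column per library, and were rounded here.

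Genes passing filterByExpr (minimum count 10, minimum total 15) were tested with edgeR 4.0.16 (R 4.3.3): TMM normalization, robust quasi-likelihood test, Benjamini-Hochberg adjustment over 11937 genes, threshold 0.05. CPM are scaled by TMM, with a prior count of 2 on the log2 scale. No value was tested over a gene list. DESeq2 1.42.0 and limma-voom (limma 3.58.1) with quality weights, other normalizations, filters and thresholds, a replicate block and leaving out libraries were alternatives. The scripts were tested on simulated counts, where DESeq2 made more false calls than edgeR or limma-voom. The simulation gave both groups the same spread for each gene, unlike these libraries, so this order of the tools may not hold for them.

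The markers and lists were chosen with earlier results of these data known. Named were the markers; in each list up to 3 genes past the threshold without overlap, by largest change, at a mean log2 CPM of at least 3; the 2 genes nearest in profile to each tested marker (some genes that this rule names are not reported here); Il1r1, Il1rl1, Il2rb, Il2rg, Cd81 and Ptpn6. Any further gene was picked with its values in view. Exon lengths came from GENCODE M21 and promoter windows from RefSeq (GRCm38.p6). Libraries had 1041562 to 8620097 counts. Reads carried no molecular identifiers, so floors and limits cover counting error only.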

Additional observations from a re-analysis of the deposited data

Results flagged for a closer look

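In 3 of 39 groups of 4 libraries checked (the markers and the marker list sums, each group by itself), a single library lay far from the others by Dixon's criterion at the 95% level. Chance gives about 1 in 20. Dpp4 was 10.7 CPM in CML 5 and 24.0 to 27.6 CPM in the other CML libraries. The granulocyte marker sum was 1462 CPM in CML-TKI 1 and 7882 to 8530 CPM in the other CML-TKI libraries. The B cell marker sum was 287 CPM in CML-TKI 3 and 16.9 to 20.8 CPM in the other CML-TKI libraries.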

How the results depend on the processing

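Limits: CML-TKI libraries vary widely, CML-TKI 3 is shallow, and markers near the floor (Il2ra, Cd33, Cd36) rest on few counts. The cause of the following shifts was not tested. The 1220 genes changed became 2157 (DESeq2), 2563 (limma-voom), 395 (adjusted p under 0.01), 122 (CML 1 to 3 summed), 2362 (without CML-TKI 1 and CML 5, chosen after seeing the data) and 505 to 2504 with 1 library left out. The 1 marker changed became 2 with DESeq2 or limma-voom (Cd33 and Cd44), 3 without CML-TKI 1 and CML 5, 0 to 3 with 1 library left out, and 0 with RLE size factors, total counts, total counts without Rn45s, adjusted p under 0.01 or CML 1 to 3 summed. It remained 1 but was Il2ra, at 0 in every CML library, with no filter on low counts, and Cd44 with a filter of 10 counts or with libraries thinned to 1041552 counts. The 38 list genes changed became 60 (limma-voom), 18 (adjusted p under 0.01), 8 (CML 1 to 3 summed) and 24 to 62 with 1 library left out. Of the calls, 61.6% were higher in CML-TKI, 50.7% with total counts without Rn45s (median log2 fold change of all genes -0.14) and 48.7% with limma-voom (-0.11).

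Replicate numbers 1 to 3 occur in both groups, but same-numbered libraries did not deviate together (correlations -0.042, 0.097 and 0.093). With 3 pairs, and CML 1 to 3 much alike, these values cannot decide whether same-numbered libraries share more than a number. On those libraries the replicate block gave 193 genes, 0 markers and 11 list genes, and the same libraries without the block gave 589, 0 and 19.

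Signs of uncalled log2 fold changes turned for 5 genes. Il1rap (0.025) was -0.0083 with DESeq2, -0.14 with limma-voom, -0.11 with total counts without Rn45s, -0.0032 without a filter, -0.69 with the replicate block, -0.15 on those libraries without it, and -0.54 to 0.37 with 1 library left out. Dpp4 (0.21) was -0.11 with limma-voom and -0.027 to 0.36 with 1 library left out. Il2rg (0.14) was -0.16 with limma-voom, -0.019 with total counts without Rn45s, and -0.089 to 0.38. Gm15455 (0.12) was -0.0069 with total counts without Rn45s, -0.54 with the replicate block, -0.17 without it, -0.036 thinned, and -0.19 to 0.47. Bmp2k (0.085) was -0.18 with limma-voom, -0.060 with total counts without Rn45s, -0.068 with the replicate block, -0.040 without it, -0.031 without CML-TKI 1 and CML 5, and -0.13 to 0.18. The other 5 tested markers kept their sign in all alternatives that tested them.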
